A study of Porphyridium purpureum with 12 samples.

Results

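Gene expression of Porphyridium purpureum, a unicellular marine red alga, was compared between both nitrogen-limited stages of a culture and its nitrogen-replete stage. The nitrogen-limited group (NL) held 6 libraries, 3 from stage NL1 with 0.6 g/L residual nitrate and 3 from stage NL2 with 0.5 g/L. The nitrogen-replete group (NR) held 3 libraries from the stage with 1.5 g/L. These 9 of the 12 libraries of the series were chosen by their nitrate label, the 3 libraries of the most depleted stage (0.3 g/L) were left out, and 9229 of the 9898 genes in the count table had enough reads in the 9 libraries to be tested. All groups came from wild-type strain 1380/1A grown in photobioreactors under continuous light. The 3 libraries of a stage were taken as technical libraries of the same biological sample. Their labels call them technical replicates, whereas a caption in the paper calls them biological. NR was sampled at the start of the logarithmic phase and NL1 and NL2 before the stationary phase, so that nitrate and culture age cannot be told apart. Every p-value here measures the spread between libraries, and none measures the spread between cultures.

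Nitrate is taken up by plasma membrane transporters, reduced to nitrite and then to ammonium, and built into glutamine and glutamate. Red algae hold part of their cell nitrogen in phycobilisomes, the pigment-protein antennae of photosystem II, and use chlorophyll-binding light-harvesting proteins with photosystem I. They store carbon as floridean starch outside the plastid. Porphyridium also builds a sulfated exopolysaccharide (EPS) of xylose, galactose, glucose and glucuronic acid from nucleotide sugars, and cultures of this alga are known to accumulate starch and EPS when nitrogen runs low.

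The libraries held 18620362 to 30556820 counts in NL and 6398926 to 19531507 counts in NR. Principal component 1 of the variance-stabilized values held 69.4% of the variance. It placed the 6 NL libraries between 21.8 and 26.6 and the 3 NR libraries between -50.8 and -47.6. Each library thus lay with its group, NL or NR. NL libraries lay 74.6 to 85.8 units from NR libraries (Euclidean distance), 18.4 to 33.2 units from libraries of their own stage and 19.8 to 41.6 units from those of the other NL stage. NL1 replicates 2 and 3 both lay nearest to a library of the other stage, NL2 replicate 2. NR replicate 3, the shallowest of the 9, stood apart: it lay 57.2 and 58.7 units from NR replicates 1 and 2, which lay 21.97 units from each other. Results are therefore also given without this library. No library was taken for a copy of another, as the counts of libraries of 1 stage differed well beyond counting error (chi-square divided by degrees of freedom, 11.5 to 99.1).

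At the first transition, 736 genes were higher and 940 lower in NL vs. NR of 9229 tested (quasi-likelihood test of edgeR, Benjamini-Hochberg adjusted). Genes were called differentially expressed (DEGs) if their log2 fold change (log2FC) was 1 or more in size with an adjusted p below 0.01. DEGs thus made up 18.2% of the genes tested, 7.97% higher and 10.2% lower. Without the fold minimum, 1550 genes were higher and 1576 lower (33.9% of those tested). The lower genes moved further than the higher ones: 399 of 940 (42.4%) had a log2FC beyond -2, against 84 of 736 (11.4%) beyond 2. Median log2FC was -1.81 for the lower genes and 1.33 for the higher genes, and -0.01 over all genes tested. Values of the 6 NL and 3 NR libraries did not overlap in 723 of the higher and 912 of the lower genes. Over all genes tested they did not overlap in 42.2%, with NL above NR in 21.0% and below it in 21.1%.

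The DEGs included much of the most abundant RNA. Genes called higher took 26.2% to 28.7% of all counts in the NL libraries and 8.42% to 10.01% in the NR libraries. Genes called lower took 5.11% to 5.92% of the counts in NL and 24.4% to 26.4% in NR. The calls were made on the same libraries and fix the direction of these shares, so that only their size is informative. Among the 20 most abundant genes of NR, 12 were called lower and 1 higher in NL. Among the 20 most abundant genes of NL, 10 were called higher and 0 lower, and 8 genes belonged to both groups of 20. Over all genes tested, 7.97% were higher and 10.2% lower. Ranking genes by abundance in a compared group favors those that are high in it.

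Without NR replicate 3, 921 genes were higher and 998 lower of 9334 tested (20.6% called, 9.87% higher and 10.7% lower). Of the 1676 DEGs of the whole comparison, 1478 were called again, 198 were not, and 0 were called in the opposite direction. A further 441 genes were called that had not been. The coefficient of variation that edgeR terms biological was 22.7% with this library and 18.4% without it. Here it measures the spread between libraries of NL or of NR, not between cultures. NR replicate 3 lay 82.9 to 85.8 units from the NL libraries, against 74.6 to 82.0 units for NR replicate 1 and 78.4 to 84.3 units for NR replicate 2. Thinning all libraries to its 6398926 counts gave 699 genes higher and 930 lower.

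**Figure D1:**
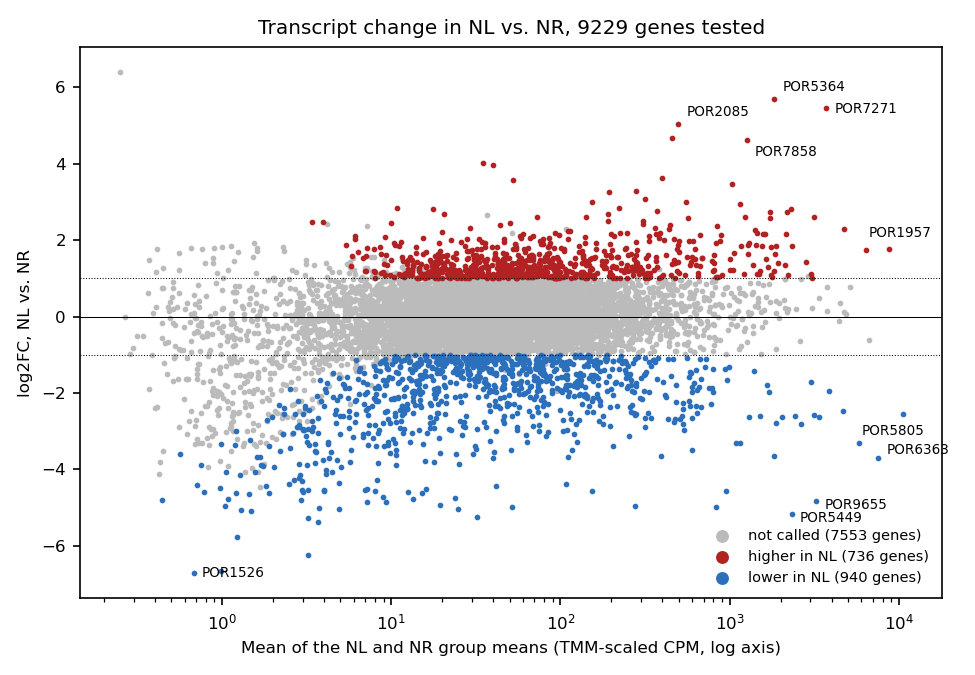
Each point is one of the 9229 genes tested, with the mean of the NL and NR group means on the x axis (CPM, log axis) and log2FC of NL vs. NR on the y axis. The 736 genes called higher and 940 called lower are colored, dotted lines mark a log2FC of 1 and -1, and the lower genes reach further from 0 than the higher genes.

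Among DEGs whose groups do not overlap, a few genes without a known function had the largest increases. POR5364 (scaffold scf244_11), a hypothetical protein in the study's annotation, had 3106, 3535 and 4403 CPM (read counts relative to library size, scaled by the trimmed mean of M-values, TMM) as the lowest, median and highest value in NL, against 76.1, 69.0 and 62.1 CPM in NR replicates 1 to 3. All 6 NL libraries lay far above the 3 NR libraries, and its log2FC was 5.70 ± 0.20 (SE, adjusted p = 3e-10, edgeR), a 51.8-fold increase. POR7271 (scf222_8), another hypothetical protein, had 5889, 7096 and 9245 CPM in NL and 186, 147 and 164 CPM in NR, with a log2FC of 5.45 ± 0.24. POR2085 (scf249_10), likewise a hypothetical protein, had 813, 997 and 1037 CPM in NL and 29.3, 27.1 and 32.3 CPM in NR, with a log2FC of 5.03 ± 0.16. NR replicate 3 did not stand apart from the other NR libraries in these 3 genes, and without it their log2FC values were 5.63, 5.45 and 5.10.

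The next increases were in genes without a product name in the tables used here. POR7858 (scf246_12) had 2209, 2409.9 and 2573 CPM in NL and 87.4, 74.1 and 131 CPM in NR, with a log2FC of 4.63 ± 0.21. POR7323, on the same scaffold, had 1689.8, 1861 and 2251 CPM in NL and 144, 139.7 and 229.7 CPM in NR, with a log2FC of 3.47 ± 0.20. Both were steady across the NL libraries, and in both NR replicate 3 held the highest NR value. POR5227 (scf250_33) was less steady, with 625, 738 and 1691 CPM in NL and 24.8, 22.4 and 56.0 CPM in NR and a log2FC of 4.69 ± 0.43; its highest NL value belonged to NL1 replicate 2. POR4585, also on scf250_33, had a log2FC of 3.62 ± 0.25, with a mean of 735 ± 191 CPM in NL (SD, n = 6 libraries) and 59.7 ± 10.1 CPM in NR (SD, n = 3 libraries). The other large increases were at lower levels: POR9889 had a log2FC of 4.02, POR3617 3.96 and POR8741 3.59, with median NL values between 59.0 and 96.9 CPM. The 10 genes were chosen among DEGs whose groups do not overlap.

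The higher genes with the most RNA in NL were POR1957, POR7465, POR6818, POR7271 and POR7404. POR1957 had 11718, 13736 and 15854 CPM in NL and 3505, 3874 and 4609 CPM in NR, a log2FC of 1.76 ± 0.18. POR7465 had 8832, 9808 and 10745 CPM in NL and 3157, 3014 and 2561 CPM in NR, a log2FC of 1.75 ± 0.16. These were abundant in both groups and moved by less than the genes above. POR6818 had 6892, 7703 and 8944 CPM in NL and 1918, 2136 and 710.3 CPM in NR, and POR7404, on the same scaffold (scf276_29) as POR7465, had 4712, 5426 and 6303 CPM in NL and 1166, 1013 and 492 CPM in NR. In both, NR replicate 3 lay far below the other NR libraries, and without it log2FC was 1.96 in place of 2.30 for POR6818 and 2.31 in place of 2.60 for POR7404.

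Among the decreases with much RNA, the retroelement gene POR5449 (scf226_27), a Pol polyprotein of the TNT 1-94 type, had 100.3, 131 and 146 CPM in NL and 4657, 4556 and 4364 CPM in NR. Its log2FC was -5.17 ± 0.15 (SE, adjusted p = 8.9e-11, edgeR), a 35.9-fold decrease, and the groups lay far apart with little spread in either. POR9655 (scf210_14) had 155, 213 and 316 CPM in NL and 5856, 5369.6 and 7520.2 CPM in NR, with a log2FC of -4.82 ± 0.23. POR6363, on the same scaffold, had 902, 1074 and 1247 CPM in NL and 14847, 15253 and 11879 CPM in NR, with a log2FC of -3.70 ± 0.16. POR9655 and POR6363 were among the most abundant RNAs of NR cells. A further 3 abundant genes fell: POR1132 to 945, 1058 and 1219 CPM in NL, against 11327, 11202 and 9179 CPM in NR (log2FC -3.31 ± 0.14), POR5805 to 2772, 3072 and 3513 CPM, against 19013, 19602 and 15679 CPM in NR (log2FC -2.56 ± 0.14), and POR2774 to 1319.6, 1423 and 1592 CPM, against 7855, 8470.3 and 7391 CPM in NR (log2FC -2.48 ± 0.13). POR5805 was the most abundant of the 5 in both groups. The tables used here give no product name for these 5 genes, and without NR replicate 3 their log2FC values ran from -4.66 to -2.51.

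Among DEGs whose groups do not overlap, the lowest log2FC values belonged to genes with little RNA even in NR. POR1526 had 1 count over the 6 NL libraries and 42 over the 3 NR libraries, a ratio of scaled counts in NR over NL of 160 with a 95% counting interval of 27.2 to 6472. POR9375 had 2 counts in NL and 71 in NR, a ratio of 135 (36.1 to 1139). These intervals cover counting error only. Such genes were nearly silent in NL, and the size of their decrease could not be fixed at this depth. POR3806 had 12 counts in NL, in 3 of 6 libraries, against 182 in NR, POR6352 had 6 against 85, POR1153 26 against 228, POR1169 12 against 93 and POR8549 11 against 106. POR9686 and POR0931 were measured with more reads and in every library. POR9686 had 0.941, 1.62 and 2.24 CPM in NL and 60.2, 77.8 and 50.8 CPM in NR, a log2FC of -5.23 ± 0.23, and POR0931 had 1.07, 1.18 and 2.11 CPM in NL and 45.6, 47.8 and 51.6 CPM in NR, a log2FC of -5.03 ± 0.25. All 29 genes named in the last paragraphs were called in the same direction without NR replicate 3.

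**Figure D2:**
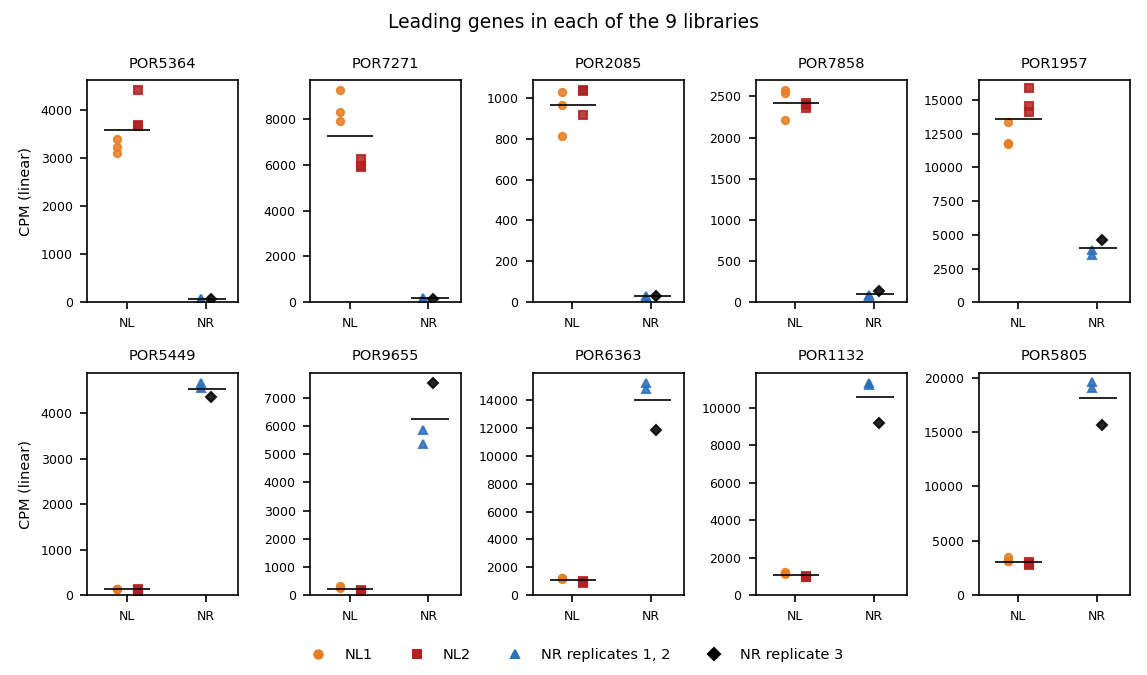
CPM (linear axis from 0) of 10 leading genes in each library, with NL on the left and NR on the right of every panel, NL1 and NL2 in separate colors and NR replicate 3 as a black diamond; horizontal lines are group means. In every panel the 6 NL libraries lie on one side of the 3 NR libraries, as for POR5364 (log2FC 5.70) and POR5449 (log2FC -5.17).

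The genes of named pathways were taken from the study's own tables. All lists but that of the carbohydrate-active enzymes (CAZymes) were picked by the study as changed genes on these libraries, so their directions are not independent evidence. The share of all genes tested that was called, 7.97% higher and 10.2% lower, and their median log2FC of -0.01 stand beside the counts below.

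Nitrogen genes moved in both directions, 2 higher and 4 lower of 10, with a median log2FC of -0.30. The 4 genes of NRT2.5, a high-affinity nitrate transporter, were all called lower. POR1427 had 11.2, 12.5 and 14.8 CPM in NL and 67.9, 52.1 and 68.8 CPM in NR, at a log2FC of -2.31 ± 0.15 (SE, adjusted p = 3.4e-08, edgeR). POR8948 had 22.9, 37.9 and 39.1 CPM in NL and 112, 104 and 125 CPM in NR (log2FC -1.71 ± 0.16). POR6298 had 6.21, 9.35 and 10.6 CPM in NL and 33.3, 39.2 and 24.7 CPM in NR (log2FC -1.84 ± 0.21). In these 3 transporter genes the groups did not overlap. POR7993 had 13.3, 19.9 and 32.7 CPM in NL and 39.2, 30.9 and 63.2 CPM in NR, so that its groups overlapped, and its call (log2FC -1.07 ± 0.27, adjusted p = 0.0052) was lost without NR replicate 3, at a log2FC of -0.73 (adjusted p = 0.036, edgeR). It was also lost in 5 of the 8 fits that left out another library, at log2FC values of -1.16 to -0.96.

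The reductases between nitrate and ammonium were not called. Nitrate reductase (NaR), which makes nitrite, had 3 genes with log2FC values of 0.22 ± 0.15 (POR6787), -0.11 ± 0.17 (POR8251) and -0.49 ± 0.32 (POR3077). POR6787 had 287, 367 and 408 CPM in NL and 276, 256 and 392 CPM in NR, and the highest NR value, that of replicate 3, lay within the NL range. POR6787 and POR8251 are near-identical copies, so that reads may be shared between them, and the direction of POR8251 turned without NR replicate 3 (log2FC 0.13). Ferredoxin-nitrite reductase (NiR, POR2445), which makes ammonium in the plastid, had 785, 860.2 and 958 CPM in NL and 433, 423 and 502 CPM in NR. Its NL libraries all lay above NR, but its log2FC of 0.93 ± 0.13 was just under 1, and it was called higher without NR replicate 3 (log2FC 1.02).

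Glutamine synthetase and glutamate dehydrogenase, which both bind ammonium, rose. Glutamine synthetase (GlnS, POR7605) had 256, 392 and 438 CPM in NL and 183, 181 and 149.7 CPM in NR, at a log2FC of 1.10 ± 0.17 (SE, adjusted p = 0.00015, edgeR). Glutamate dehydrogenase (GluDH, POR3485), which interconverts glutamate and 2-oxoglutarate, had 583, 717 and 740.0 CPM in NL and 269, 299 and 363 CPM in NR, with a log2FC of 1.15 ± 0.14. Neither overlapped between groups. GlnS had a log2FC of 0.90 for NL1 alone and 1.29 for NL2 alone, values that share their NR libraries. Asparagine synthetase A (POR2648), which adds ammonium to aspartate, went the other way, with 112, 129 and 153 CPM in NL and 1015, 949 and 819 CPM in NR and a log2FC of -2.81 ± 0.13.

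**Figure D3:**
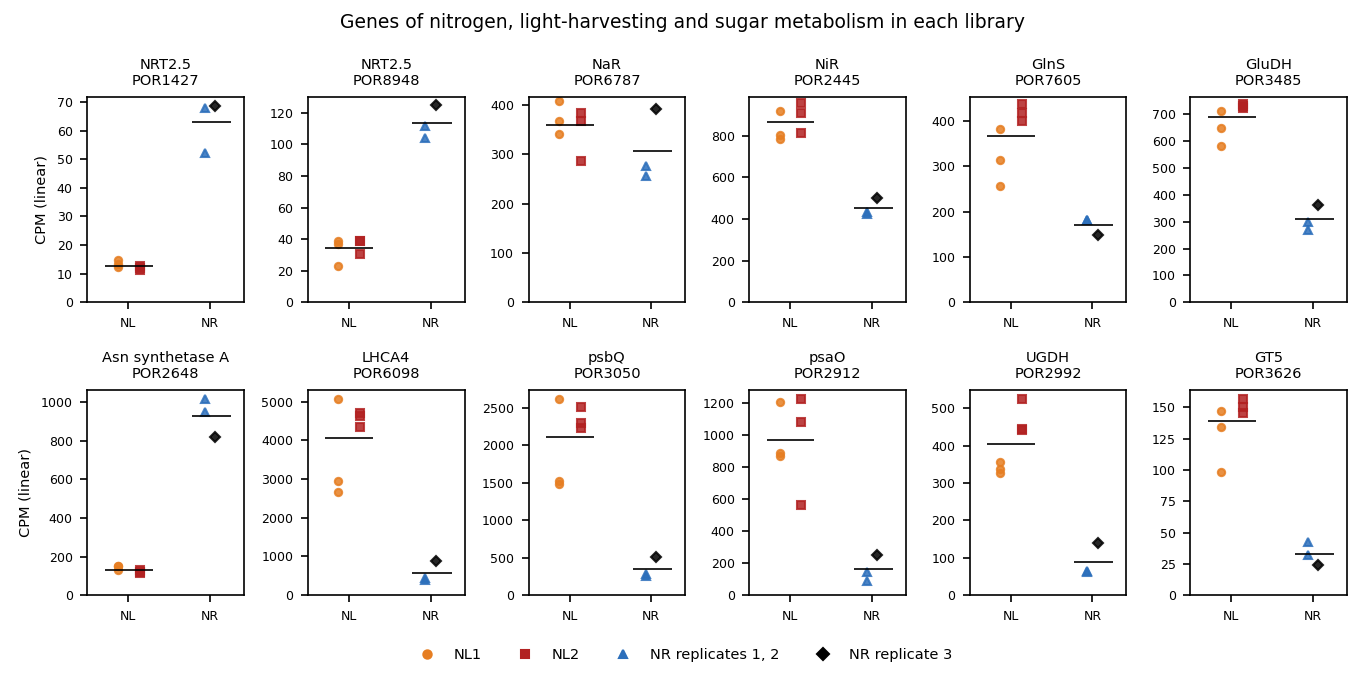
CPM (linear axis from 0) of 12 genes of nitrogen, light-harvesting and sugar metabolism in each library, NL on the left and NR on the right, with group means as horizontal lines and NR replicate 3 as a black diamond. NRT2.5 and asparagine synthetase A lie lower in NL, NaR overlaps, and the other genes lie higher in NL, with a log2FC of 2.81 for LHCA4.

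Photosynthesis genes on the study's list rose together: 12 of 13 were called higher and 0 lower, and the median log2FC was 2.12. In all 13 the NL libraries lay above the NR libraries, against 21.0% of all genes tested. The 13 were picked as changed in these libraries, so that a larger share was favored in advance. The light-harvesting chlorophyll-binding proteins, which feed photosystem I, held the largest increase. LHCA4 (POR6098) had 2655, 4480.3 and 5058 CPM in NL and 444, 402 and 884 CPM in NR, at a log2FC of 2.81 ± 0.31 (SE, adjusted p = 6.7e-06, edgeR). The other LHCA4 genes, POR2815 and POR9059, had log2FC values of 2.19 ± 0.25 and 2.16 ± 0.34, and LHCA1 (POR2835) had 2.16 ± 0.20. The photosystem I subunit psaO (POR2912) had 563, 985 and 1225 CPM in NL and 146, 90.2 and 254 CPM in NR, with a log2FC of 2.58 ± 0.33. Its NL libraries spread widely, but the lowest of them was still above all NR libraries.

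Within photosystem II, the proteins around the oxygen-evolving complex rose by unequal amounts. psbQ (POR3050) had 1478, 2265 and 2615 CPM in NL and 279.8, 251 and 515 CPM in NR, with a log2FC of 2.60 ± 0.28. psbO (POR0335), the manganese-stabilizing protein, had 1865, 2229 and 2746 CPM in NL and 546, 479.5 and 804 CPM in NR, with a log2FC of 1.89 ± 0.21. psbP (POR2049) had 86.4, 111 and 155 CPM in NL and 47.2, 48.8 and 50.040 CPM in NR, with a log2FC of 1.23 ± 0.18. The assembly factor psb27 (POR4156) was the steadiest, with 279.6, 348 and 375 CPM in NL and 77.0, 73.4 and 80.8 CPM in NR and a log2FC of 2.12 ± 0.14.

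Electron carriers and the plastid ATP synthase were called higher in 3 of 4 genes. The iron-sulfur subunit of cytochrome b6-f, petC (POR2665), had a log2FC of 1.19 ± 0.14, ferredoxin-NADP reductase, petH (POR1681), 1.41 ± 0.19, and the ATP synthase gamma chain, atpG (POR7078), 1.63 ± 0.20. Ferredoxin, petF (POR8201), had 53.2, 72.1 and 80.2 CPM in NL and 38.9, 35.6 and 51.3 CPM in NR and was not called (log2FC 0.76 ± 0.16). NR replicate 3 held the highest NR value in all 13 photosynthesis genes, against 43.7% of all genes tested. The part of this library in the result was measured by leaving it out: 12 of 13 were again called higher, LHCA4 (POR6098) at a log2FC of 3.27 and psaO at 3.05. The summed level of the 13 genes was 16900 to 26870 CPM in NL and 4246 to 7367 CPM in NR.

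Respiration and proton pump genes were called higher in 12 and lower in 1 of 18, with a median log2FC of 1.18. Complex I, which passes electrons from NADH to quinone, had increases in its acyl carrier proteins NDUFAB1 (POR8552, log2FC 1.65 ± 0.18, and POR6026, 1.47 ± 0.12) and in NDUFB7 (POR6624, 1.33 ± 0.13) and NDUFB9 (POR5888, 1.20 ± 0.15). In POR6026, values were 179, 210.4 and 224 CPM in NL and 80.0, 68.4 and 77.6 CPM in NR. Complex III, which passes electrons on to cytochrome c, rose in QCR6 (POR4579, 1.74 ± 0.21) and QCR7 (POR0022, 1.16 ± 0.19, not called without NR replicate 2 at 0.98). The most abundant complex I gene, the flavoprotein NDUFV1 (POR0214), had 1319.9, 1367 and 1555 CPM in NL and 807, 749 and 242 CPM in NR, with a log2FC of 1.23 ± 0.29. NR replicate 3 lay far below the other NR libraries in it, and without that library it was no longer called (log2FC 0.86). The same held for NDUFV2 (POR6362, 0.84) and the mitochondrial ATP synthase subunit delta (POR8536, 0.93), at log2FC values of 1.01 and 1.08 with all libraries. NDUFV2 was also lost without NL1 replicate 1 (0.97) or 3 (0.99). The second NDUFV2 gene (POR6506, log2FC 1.28 ± 0.43) was called without NL2 replicate 3 (1.46) but not with all libraries.

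The vacuolar proton pump (V-ATPase), which acidifies internal compartments, rose in subunits E (POR3560, log2FC 1.40 ± 0.19), c (POR5789, 1.38 ± 0.28) and d (POR8327, 1.16 ± 0.14). Subunit D (POR0161) had 89.2, 108 and 119 CPM in NL and 45.3, 42.8 and 78.6 CPM in NR and was called without NR replicate 3 but not with it (log2FC 0.94 with it and 1.28 without it). The 3 genes of the membrane subunit a were not called, with log2FC values of 0.68 (POR2018), 0.17 (POR8744) and -0.32 (POR0353). Another ATPase gene, POR6749, whose annotation is ambiguous, was called lower (-1.12 ± 0.15). Without NR replicate 3 the whole list had 10 genes higher and 1 lower.

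Of 20 genes of carbon metabolism between sugars and pyruvate, 8 were called higher and 2 lower, with a median log2FC of 0.74. Fructose-1,6-bisphosphatase (FBP), which acts in gluconeogenesis and the Calvin cycle, was called higher in POR3931 (log2FC 1.90 ± 0.20) and POR7711 (1.57 ± 0.24). The study predicts both of these to be cytosolic and the remaining FBP gene to be plastid. POR3931 had 56.5, 88.9 and 104 CPM in NL and 20.8, 26.1 and 21.8 CPM in NR. The third and most abundant FBP gene, POR8239, had 566, 622 and 668 CPM in NL and 324, 308 and 298 CPM in NR, and its log2FC of 0.99 ± 0.12 was just under the minimum, which it passed in 4 of the fits that left out 1 library (1.01 to 1.03). Fructose-bisphosphate aldolase (ALDO) split: the plastid gene POR3181 had 1164, 1664 and 1996 CPM in NL and 540.1, 470.4 and 520.1 CPM in NR (log2FC 1.67 ± 0.18), POR9095 had a log2FC of 1.61 ± 0.19, and POR1048, which is predicted to be cytosolic, fell (-1.36 ± 0.26), a call lost without NR replicate 3 (-0.93).

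Glucose-6-phosphate 1-epimerase rose in both of its genes, POR2196 (log2FC 1.71 ± 0.14) and POR4695 (1.29 ± 0.18). Of 2 phosphoglycerate kinase (PGK) genes, POR3748 was called higher (1.34 ± 0.19) and POR4739 was not (0.51 ± 0.14). Pyruvate decarboxylase (PDC, POR0764), which opens the branch from pyruvate to ethanol, had 863, 1041 and 1134 CPM in NL and 464, 437 and 162 CPM in NR, with a log2FC of 1.53 ± 0.27. The alcohol dehydrogenase genes of that branch were not called, POR0637 at 0.93 ± 0.17 (called without NR replicate 1 or 2, at 1.04 and 1.07) and the abundant POR6665 at 0.44 ± 0.27. Other genes that passed no call were enolase (ENO, POR6343, 0.49), pyruvate kinase (PK, POR6038, 0.43), glucokinase (GK, POR2873, 0.46), phosphoglucomutase (PGM2, POR0605, 0.46) and dihydrolipoyl dehydrogenase (DLD, POR2889, 0.55, and POR3702, -0.50). POR6810, a gene of the pyruvate branch with an ambiguous product name, was called lower (-1.53 ± 0.17). Phosphoenolpyruvate carboxykinase (PEPCK, POR8724), the entry to gluconeogenesis, which is counted with the other named genes, had 4215, 5352 and 6568 CPM in NL and 11181, 10802 and 2245 CPM in NR. Its NR libraries lay on both sides of the NL range, and it was called lower only without NR replicate 3 (log2FC -0.61 with it and -1.05, adjusted p = 0.00016, without it, edgeR).

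Pentose phosphate pathway genes showed no common direction, with 2 higher and 1 lower of 7. Ribulose-phosphate 3-epimerase (RPE), a step shared with the Calvin cycle, rose in POR0858 (log2FC 1.57 ± 0.24) and POR7389 (1.20 ± 0.20, not called without NR replicate 2 at 0.99). These genes are near-identical copies, so that reads may be shared between them. The 6-phosphogluconate dehydrogenase (PGD) gene POR4213, which yields NADPH, had 101, 129 and 144 CPM in NL and 421, 389 and 376 CPM in NR, with a log2FC of -1.66 ± 0.12, while the second PGD gene POR4685 was not called (0.22 ± 0.16). 6-phosphogluconolactonase (PGL, POR6162) had a log2FC of 0.98 ± 0.12, which was called without NR replicate 2 (1.07), NL1 replicate 1 or NL2 replicate 3 (both 1.01), and ribose-phosphate pyrophosphokinase (PRPS, POR3179) one of -0.07 ± 0.22. With all libraries neither was called.

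Nucleotide sugar genes rose in 8 of 9 cases and fell in 0, with a median log2FC of 1.17, and kept these calls without NR replicate 3. With NL1 alone set against NR 7 were called higher, and with NL2 alone 6. UDP-glucose 6-dehydrogenase (UGDH, POR2992), which makes UDP-glucuronic acid, had 328, 399 and 525 CPM in NL and 62.9, 64.1 and 141 CPM in NR. Its log2FC was 2.19 ± 0.27 (SE, adjusted p = 1.8e-05, edgeR), with the highest NR value in replicate 3, and 2.68 without that library. UDP-glucuronate decarboxylase (UXS1, POR4905), which makes UDP-xylose from it, had 251, 352 and 380.4 CPM in NL and 140.0, 142 and 155 CPM in NR, with a log2FC of 1.17 ± 0.15. Upstream of both, UTP-glucose-1-phosphate uridylyltransferase (UGP2, POR1962), the source of UDP-glucose, had 199, 258 and 316 CPM in NL and 105, 122 and 85.7 CPM in NR, with a log2FC of 1.28 ± 0.16. The 3 steps listed from glucose 1-phosphate to UDP-xylose thus all had more RNA in NL.

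The mannose branch rose as well. Phosphomannomutase (PMM, POR7125) had 186, 195 and 212 CPM in NL and 57.9, 55.6 and 69.8 CPM in NR (log2FC 1.68 ± 0.12), and mannose-1-phosphate guanylyltransferase (GMPP, POR2740), which makes GDP-mannose, had 90.1, 104 and 113 CPM in NL and 41.7, 30.3 and 25.8 CPM in NR (log2FC 1.62 ± 0.16). GDP-mannose 3,5-epimerase (GME, POR1248), which leads to GDP-L-galactose, had a log2FC of 1.13 ± 0.15. GNA1 (POR4056), a step toward UDP-N-acetylglucosamine, and L-xylulose reductase (DCXR, POR0983) rose at low levels, with median NL values of 12.1 and 18.6 CPM and log2FC values of 1.16 ± 0.26 and 1.09 ± 0.23. GNA1 was not called with NL1 alone (1.29) or NL2 alone (1.03) set against NR, and DCXR not with NL2 alone (0.94). PGM2, counted in this list as well, was the only member that was not called.

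**Figure D4:**
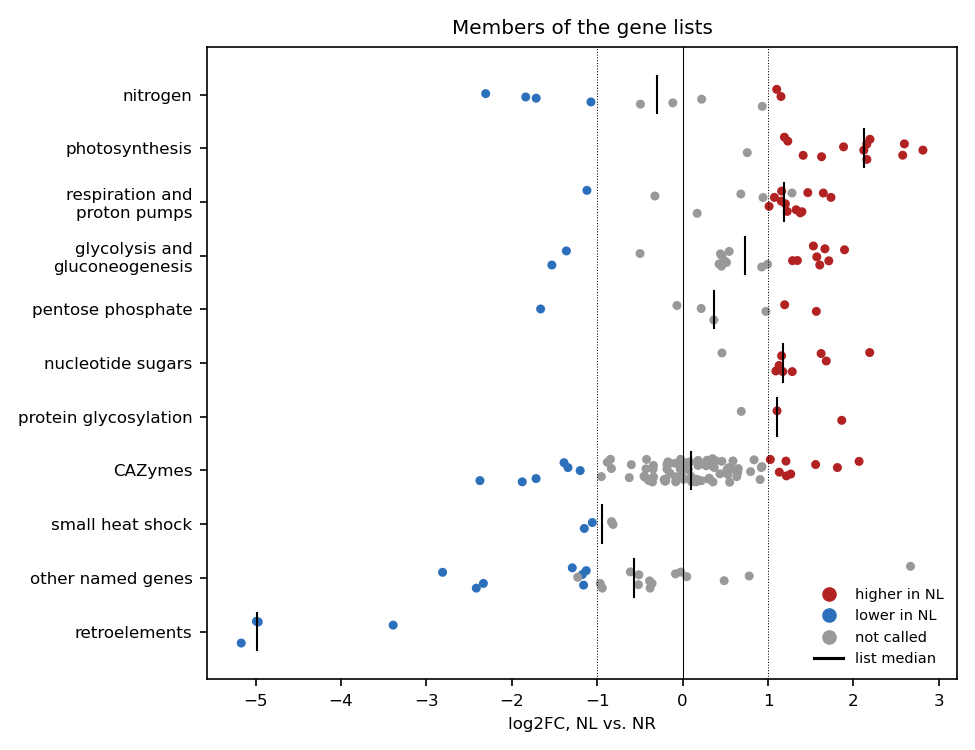
Each point is a gene, with log2FC of NL vs. NR on the x axis and its list on the y axis; red is called higher, blue called lower and gray not called, black bars are list medians and dotted lines mark log2FC of 1 and -1. Photosynthesis (median 2.12) and nucleotide sugars (median 1.17) lie to the right, retroelements (median -4.98) to the left, and CAZymes (median 0.10) on both sides of 0.

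CAZymes, the enzymes that build, link and cut sugars, were taken from the study's list of annotated CAZymes, which was not picked for change in expression. The best matching gene of each entry was used, and 5 near-identical second copies were not counted. The GT13 genes POR1266 and POR5292 are near-identical to each other but were both counted, and reads may be shared between them. Of 89 genes, 87 were tested, and 8 (9.20%) were higher and 6 (6.90%) lower, against 7.97% and 10.2% of all genes tested. The share called was therefore near the background, and the median log2FC was 0.10. GT1 (POR7290) and a GT13 gene (POR5292), each with a near-identical copy, were left out of the test with 53 and 43 counts in NL and 4 and 15 counts in NR. Of 61 glycosyltransferases (GT) tested, 7 were higher and 6 lower, and of 26 glycoside hydrolases (GH) 1 was higher and 0 lower.

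The GT gene with the largest increase was a GT5 gene, POR3626, annotated as a granule-bound starch synthase, with 98.7, 147 and 157 CPM in NL and 32.0, 42.6 and 24.4 CPM in NR and a log2FC of 2.07 ± 0.20 (SE, adjusted p = 1.6e-06, edgeR). The only hydrolase called was POR4239, a GH13 alpha-amylase, with 170.2, 184 and 187 CPM in NL and 87.6, 70.3 and 89.2 CPM in NR and a log2FC of 1.13 ± 0.12. The 9 GH13 genes had log2FC values of -0.35 to 1.13. The second and more abundant GT5 gene, POR7120, was not called (log2FC 0.17). Glycogen phosphorylase (GT35, POR6603, 0.65) was not called either, nor was any of the 2 GH14 and 3 GH77 genes. Single genes for making and for cutting alpha-glucans thus rose, while most of the related genes were not called. Alpha-glucan water dikinase (GWD, POR4248), which phosphorylates starch before its breakdown in plants, had 235, 276 and 323 CPM in NL and 367, 343 and 375 CPM in NR. It did not overlap between groups but was not called (log2FC -0.39 ± 0.14).

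Among the other transferases, the GT23 gene POR0528 was the most abundant that rose, with 1368, 1416 and 1641 CPM in NL and 604, 713 and 564 CPM in NR and a log2FC of 1.22 ± 0.13. Increases were also called for GT39 (POR3279, log2FC 1.81 ± 0.17), GT32 (POR1493, 1.56 ± 0.15) and GT8 (POR4276, annotated as a glucoside xylosyltransferase, 1.27 ± 0.17). The same was true of GT28 (POR5938, 1.21 ± 0.19), annotated as a synthase of monogalactosyldiacylglycerol, the main thylakoid lipid. A second GT32 gene (POR8522) had 23.2, 32.8 and 39.7 CPM in NL and 19.7, 19.7 and 7.98 CPM in NR, and its call (log2FC 1.03 ± 0.26) was lost without NR replicate 3 (0.74) and in 4 fits without an NL library (0.98 to 1.04).

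GT19 (POR1913), annotated as a lipid A disaccharide synthase, fell the furthest, with 55.4, 63.8 and 69.7 CPM in NL and 352, 371 and 261 CPM in NR and a log2FC of -2.37 ± 0.13. GT25 (POR4547) had 94.965, 105 and 120.1 CPM in NL and 294, 253 and 619 CPM in NR (log2FC -1.88 ± 0.22), with NR replicate 3 far above the other NR libraries, and -1.36 without that library. A GT4 gene (POR0856, -1.72 ± 0.16), the GT78 gene annotated as mannosylglycerate synthase (POR3673, -1.39 ± 0.22) and a GT14 glucuronosyltransferase (POR3489, -1.34 ± 0.14) were lower as well. The GT77 arabinofuranosyltransferase gene POR3691 (-1.20 ± 0.15) was called with all libraries but not without NR replicate 3 (-0.99). Leaving out that library gave 9 CAZymes higher and 7 lower, with GT4 (POR9558, log2FC 1.32) and GT8 (POR5778, 1.05) added to the count of higher genes and GT77 (POR5296, -1.005) and GT14 (POR0279, -1.04, and -1.01 without NL2 replicate 3) to the count of lower genes.

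Protein glycosylation was represented by 3 genes, of which 2 were called higher and 0 lower. The oligosaccharyltransferase, which moves glycans onto proteins in the endoplasmic reticulum, rose in OSTC (POR5075, log2FC 1.86 ± 0.30) and RPN2 (POR7179, 1.11 ± 0.25), both at low levels, with 11.6, 16.8 and 21.3 CPM for OSTC in NL and 5.43, 5.29 and 2.61 CPM in NR. ALG5 (POR6123), which makes dolichyl-phosphate glucose, was not called (0.69 ± 0.29). RPN2 lost its call when NR replicate 1, NR replicate 2 or NL1 replicate 1 was left out, at log2FC values of 1.11, 0.93 and 1.00, and 1 of the 3 genes was then higher.

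The 4 retroelement genes on the study's list were all called lower, with a median log2FC of -4.98. They did not overlap between groups, against 21.1% of all genes tested that lay lower in NL without overlap. These genes too were picked as changed in these libraries, so that a larger share was favored in advance. Beside POR5449, the TNT 1-94 Pol genes POR0765 and POR4570 had log2FC values of -4.99 ± 0.15 and -4.97 ± 0.15, and the Ty3-I Gag-Pol gene POR2752 had -3.39 ± 0.14. POR0765 had 41.2, 52.3 and 58.9 CPM in NL and 1680.2, 1792 and 1375 CPM in NR, and POR4570 had 13.996, 18.1 and 19.3 CPM in NL and 472, 500.2 and 637 CPM in NR. The spread within each group was small beside the difference. Their summed level was 185 to 249 CPM in NL and 6744 to 7241 CPM in NR. Retroelements exist in many similar copies, and how reads with several matches were assigned could not be read from the counts, so that the level of any single copy is uncertain.

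Small heat shock proteins, chaperones that bind unfolded proteins, were called lower in 2 of 4 genes, HSP22 (POR1316, log2FC -1.06 ± 0.18) and POR3921 (-1.15 ± 0.22). HSP22 had 169.6, 183 and 215 CPM in NL and 522, 404 and 242 CPM in NR. In all 4 genes NR replicate 3 held the lowest NR value, against 44.4% of all genes tested. Without that library 4 of 4 were called lower, with POR6677 at -1.04 and POR6190 at -1.12, and without NR replicate 1 the count was 0, with HSP22 at -0.79 and POR3921 at -0.81. With NL1 alone set against NR, 0 genes were called lower (HSP22 at -0.99 and POR3921 at -1.03), and with NL2 alone 2 were.

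Of the 22 other genes that the study named, 0 were called higher and 7 lower, with a median log2FC of -0.56. Their summed level was 11720 to 17650 CPM in NL and 9929 to 24690 CPM in NR, with NR replicate 3 at the low end and holding the lowest NR value in 19 of 22 genes. With NL1 alone set against NR, 1 of the 22 was called higher and 3 lower, and with NL2 alone 1 higher and 7 lower. ARF6 (POR3853), a small GTPase of vesicle traffic, had 127, 168 and 206 CPM in NL and 999, 916 and 746 CPM in NR, with a log2FC of -2.42 ± 0.17. The flavohemoprotein gene POR7105 had 163, 214 and 262 CPM in NL and 1248, 1156 and 755 CPM in NR (-2.33 ± 0.18), and a second one, POR5270, had a log2FC of -1.17 ± 0.16. Flavohemoproteins detoxify nitric oxide in bacteria and yeast. A phototropin, a blue-light receptor (POR7844), had 169, 227 and 282 CPM in NL and 632, 538 and 299 CPM in NR (-1.13 ± 0.22), and without NR replicate 1 its log2FC of -0.90 was not called.

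The remaining calls of this group were the transcription factor WER (POR7957, -1.29 ± 0.24) and a flippase kinase (POR4745, -1.16 ± 0.23, not called without NR replicate 2 at -0.91). Both overlapped between groups, since NR replicate 3 lay within the NL range. The RNA helicase CrhR (POR3186, -0.96 with all libraries and -1.13 without NR replicate 3) and a zinc finger protein (POR0979, -0.94 and -1.22) were called lower without that library, CrhR also without NL1 replicate 2 (-1.05). A gene with an SH3 domain (POR9133) had 23.8, 30.5 and 236 CPM in NL and 9.59, 7.51 and 13.3 CPM in NR. Its log2FC of 2.67 ± 0.79 was large but not called, and without NL1 replicate 2, which held the highest value, it was called at 1.53.

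The share of DEGs was also counted by scaffold of the assembly, which the gene IDs carry. On the 19 scaffolds with at least 50 genes tested, the share called lower ran from 6.43% to 26.1% and the share called higher from 0% to 12.1%. Scaffold scf210_14 stood at the far end: of its 115 genes tested, 30 (26.1%) were lower and 1 (0.87%) higher, and their median log2FC was -0.37. Of the 30 lower genes, 25 had a log2FC beyond -2 and 12 beyond -3, and 29 did not overlap between groups. Among them were POR6363 and POR9655, abundant in NR, and POR3806 and POR9375, nearly silent in NL. Without NR replicate 3 the scaffold had 31 genes lower and 2 higher. Of the 143 genes on it, 80.4% had enough reads to be tested, against 93.2% of all genes.

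Other scaffolds differed less. The next highest shares of lower genes were 15.2% on scf246_12, which also carries the strongly increased POR7858 and POR7323, and 14.5% on scf296_7. The largest share of higher genes was 12.1% on scf244_11, the scaffold of POR5364. Scaffold scf270_19 had 0 higher and 7 lower genes of 73 tested. These shares are a description and were not tested.

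**Figure D5:**
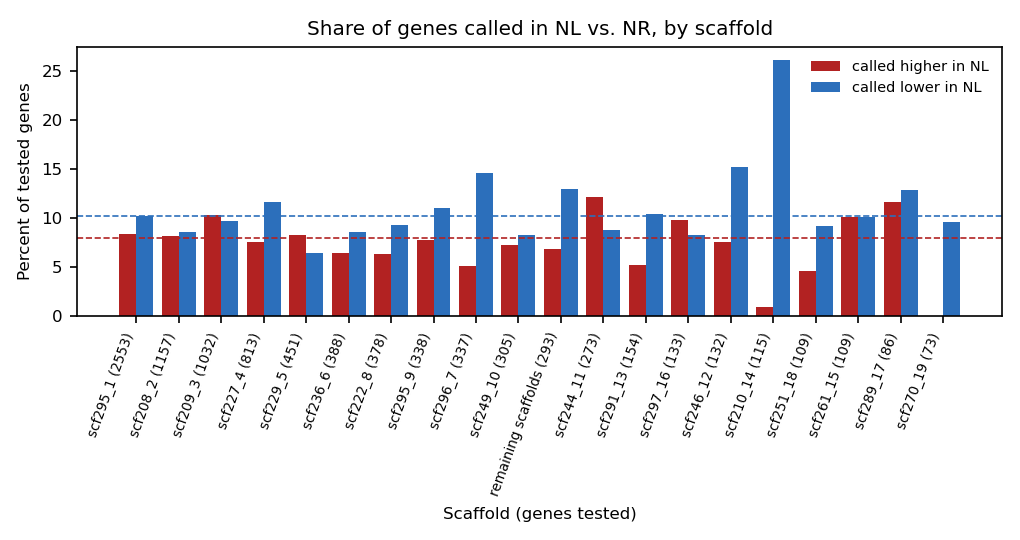
Share of tested genes called higher (red) and lower (blue) in NL on each scaffold with at least 50 genes tested and on the remaining ones together (y axis in percent, number tested in brackets); dashed lines are the shares over all genes, 7.97% and 10.2%. Scaffold scf210_14 has the highest share of lower genes, 26.1%, and 0.87% higher.

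The stages of NL differed from each other by less than the test could call. In the fit of the 9 libraries with NL1 and NL2 kept apart, 0 genes were higher and 0 lower in NL2 vs. NL1 by edgeR's quasi-likelihood test. An unadjusted p under 0.05 was found in 469 of 9229, a cutoff that a share of about 0.05 passes by chance alone. Set against NR on its own, NL1 gave 602 genes higher and 728 lower (6.55% and 7.92% of 9192, 14.5% in all). NL2 gave 672 higher and 833 lower (7.33% and 9.08% of 9172, 16.4% in all). Some leading genes still had unlike values: POR9655 had a log2FC of -4.48 in NL1 and -5.24 in NL2, POR5227 5.02 and 4.28, and UGDH 1.95 and 2.41. These pairs share the NR libraries, and none of their differences passed the test.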

How the data were processed

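Stranded mRNA libraries were read as paired ends. The deposited values are raw counts of reads. To make them, the authors aligned reads with STAR 2.7.8a and ran featureCounts 2.0.1 over the version 2 genes. Its strand setting is not given in the sources used here, so that genes overlapping in antisense may share reads. Columns were matched to samples by their description label (0 columns unmatched). Labels call the libraries of a stage technical replicates, whereas a caption in the paper calls them biological.

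NL was compared with NR by the quasi-likelihood F-test of edgeR 4.0.16 in R 4.3.3 (scaled by TMM and filtered by filterByExpr at minimum count 10, with Benjamini-Hochberg adjustment). SE is the log2FC divided by the root of F. Variance-stabilized values came from DESeq2 1.42.0. Genes named are the 10 largest and 10 smallest log2FC among DEGs without overlap, the 5 most abundant higher and lower DEGs, and list members, of which 1 is not reported here. Members, lists and the comparison were chosen with earlier results of these data known. On simulated counts (9184 genes), 34.0% of log2 changes of 1, 86.0% of 1.5, 98.0% of 2 and 96.0% of 3 were recovered. Of the unchanged genes, 0 were called. The simulated libraries of a group shared a common mean. A shift of a whole library, as in NR replicate 3, was not simulated, so that false calls from it were not measured. Alternatives were DESeq2's likelihood ratio test, its size factors, library totals, limma-voom 3.58.1, both filters, separate stages, all 12 libraries, a replicate block, thinning, and each library left out.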

Additional observations from a re-analysis of the deposited data

Results flagged for a closer look

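In 8 of the 144 genes named with a test, 1 of the 6 NL libraries lay further from the rest than a test for a single stray value allows at its 95% level (a gap of over 0.625 of the range). Chance alone gives about 1 such gene in 20. NL1 replicate 2 was the high library in POR5227, at 1691 CPM with the next at 790.3 CPM. In the SH3 domain gene POR9133 it had 235.6 CPM with the next at 34.5 CPM. It was also the high library in POR3806, with 0.361 CPM, and in POR1526, with 0.0361 CPM, which is a single count. NL2 replicate 3 was high in glucokinase (POR2873), at 155.9 CPM with the next at 124 CPM, and in the GT14 gene POR3489, at 51.4 CPM with the next at 39.6 CPM. NL2 replicate 2 held all reads of POR6352 in NL, at 0.200 CPM. NL1 replicate 1 was low in phosphoglycerate kinase POR4739, at 221 CPM with the next at 275 CPM.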

How the results depend on the processing

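Over all genes, every alternative with a fold minimum gave 602 to 921 genes higher and 728 to 1140 lower, within 1.5 times of 736 and 940. In each of them, 0 of the 1676 DEGs were called in the opposite direction. Without the fold minimum, 1550 genes were higher and 1576 lower, and CAZymes 17 higher and 11 lower in place of 8 and 6. Leaving out each library in turn gave 654 (without NR replicate 2) to 921 (without NR replicate 3) genes higher and 873 (without NR replicate 1) to 998 (without NR replicate 3) lower. It gave 7 to 9 CAZymes higher, 6 to 7 lower, and 65 to 71 DEGs among the other lists, which held 67. Library totals in place of TMM moved the median log2FC of all genes to -0.07 and gave 625 genes higher and 1014 lower (38.1% higher, against 43.9%). DESeq2's likelihood ratio test gave 724 and 1034, and limma-voom with quality weights, in which NR replicate 3 had the lowest weight (0.247), 889 and 1140. The cause of these differences was not tested.

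Of the 144 genes named with a test, 101 kept their call and direction under every alternative in which they were fitted. Of these genes, 8 were not fitted in 1 or more alternatives (18 values), POR1526 in 8 of them, including both stages alone and the fits without NL1 replicate 2 or 3 or NL2 replicate 1 or 2. In 8 of 3006 values the sign turned, all in genes that were not called: POR3179 had a log2FC of 0.12 with limma-voom and of -0.18 to 0.094 with each library left out, above 0 without NR replicate 3 or NL2 replicate 3 (0.018). POR8251 had 0.16 with limma-voom and -0.25 to 0.13 with each library left out, and POR8744 had -0.056 and -0.13 to 0.45, both turning in limma-voom and without NR replicate 3 only. POR0353 had 0.022 with limma-voom. Few reads limit the genes nearly silent in NL, and NR rests on 3 libraries, so that its spread is known least.

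Replicate numbers did not pair the libraries. From stage means, same-numbered libraries deviated with correlations of -0.03 to 0.11 (9 pairs), and 3 of 9 correlated best with their own number. With the replicate number as a block, 767 genes were higher and 904 lower.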
